A study of Mus musculus with 18 samples.

Results

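Splenic B cells from mice given soluble OVA were compared with splenic B cells from mice given PBS, by bulk RNA-Seq. The comparison rests on 6 of the 18 libraries of the series, which are those whose titles name B cells of the spleen with soluble OVA or with PBS, and each group held 3 biological replicates. OVA is ovalbumin, the egg-white protein that served as the allergen. All mice were female BALB/cJ, 10 to 12 weeks of age, and all of them, controls included, had been sensitized by 2 intraperitoneal injections, each of 20 μg OVA with alum (1 mg), given on day 0 and again on day 14. On days 28 and 42, the soluble OVA group received 100 μg of the free protein i.v., and the PBS group received 100 μL of the vehicle. Spleens were taken on day 44, before any oral challenge, and B cells were enriched by negative magnetic selection. The PBS group was therefore a sensitized group without further antigen, and no unsensitized group was used here. The spleens of OVA NP–treated mice, which received the antigen inside polymer particles (2.5 mg), and the Peyer's patch B cells of soluble OVA– and PBS-treated mice were used only to show where the splenic response to soluble OVA differed.

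A B cell that meets its antigen and gets help from a T cell can enter a germinal center, a structure of the B cell follicle in which B cells divide rapidly, mutate their antibody genes, and are selected for binding. After activation the heavy chain can also be switched from IgM and IgD to IgG, IgE, or IgA. IL-4 from helper T cells directs the switch of mouse B cells to IgG1 and IgE, and IgE is the isotype that arms basophils and mast cells in food allergy. The resting B cells of the spleen are mostly follicular and marginal zone cells, which are held in place by chemokine and lipid receptors.

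The soluble OVA libraries held between 15670042 and 26167308 counts and the PBS libraries between 21504233 and 23969127, so 3 counts corresponded to 0.115 to 0.191 CPM (counts scaled to a library total of 1000000). Pan-B cell genes summed to between 10587 and 10875 CPM in the soluble OVA libraries and between 11099 and 11437 CPM in the PBS libraries, and the median log2 fold change of the 9 genes was -0.05. T cell markers summed to at most 94.0 CPM in any of the 6 libraries. The principal axis of variation among the 6 libraries held 47.5% of the variance and separated the groups. PBS replicate 3 stood closest to the soluble OVA libraries on that axis and had the highest PBS level of several germinal center genes. Replicates of a group differed by more than counting error, and no 2 libraries were identical. The selected cells are a mixture of B cell types, so throughout, fewer cells of a type and less RNA per cell cannot be told apart.

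The question of the comparison was what a repeated i.v. dose of free antigen left behind in the splenic B cells of sensitized mice. Of 14128 genes tested with edgeR's quasi-likelihood test, 2428 (17.2%) were DEGs, defined by an adjusted p under 0.05 together with a log2 fold change beyond 0.25 in either direction. With soluble OVA, 1479 genes (10.5%) rose and 949 (6.72%) fell. Most changes were small, with a median absolute log2 fold change of 0.43 among the DEGs, but 333 genes rose and 100 fell by more than 1 on the log2 scale. The 3 soluble OVA libraries did not overlap with the 3 PBS libraries for 38.5% of the tested genes (17.7% higher and 20.8% lower). These shares are the background for each gene list described next. DESeq2, the tool of the study, called 2393 DEGs, of which 1457 were higher and 936 lower. Without PBS replicate 1, edgeR called 620 genes lower and 1771 in all.

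**Figure D1:**
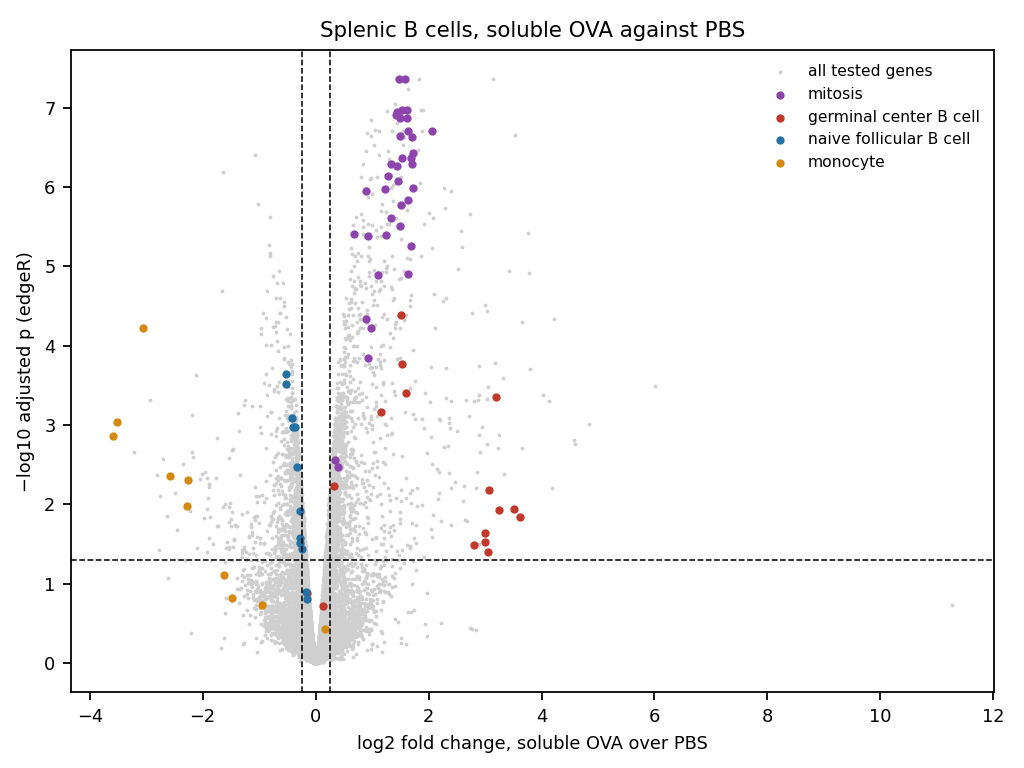
Log2 fold change (soluble OVA over PBS, x axis) and −log10 of the edgeR adjusted p (y axis) of the 14128 genes tested in splenic B cells, with 3 libraries per group. Grey points are all genes, colored points are members of 4 lists, and dashed lines mark the DEG cutoffs. Germinal center and mitosis genes lie to the right, naive follicular genes form a tight group just left of 0, and monocyte markers lie far to the left.

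Germinal center genes had the highest median change of the 47 gene lists examined. Of 16 genes of the list, all tested, 14 rose and 0 fell, against 10.5% of all genes that rose, and their median log2 fold change was 2.90, against -0.01 for all tested genes. *Gcsam* (chr16:45610380-45622867, plus strand, GRCm38), which encodes a membrane adaptor of germinal center B cells, was at 62.3, 38.3 and 52.7 CPM in soluble OVA replicates 1, 2, and 3, and at 2.99, 2.71 and 8.23 CPM in PBS replicates 1, 2, and 3. Its level was 11.4-fold higher with soluble OVA (log2 fold change 3.51 ± 0.49 [SE], edgeR adjusted p = 0.0115). *S1pr2*, a receptor that holds B cells inside the germinal center, was at 57.5, 42.1 and 52.4 CPM against 3.98, 3.46 and 12.1 CPM. Both genes had the lowest soluble OVA value in replicate 2 and the highest PBS value in replicate 3, and the groups stayed apart. *Gcsam* lost its call without PBS replicate 1 (adjusted p = 0.0527). *Mef2b*, a transcription factor upstream of *Bcl6*, rose from a mean of 4.11 ± 2.89 to 38.1 ± 6.28 CPM (SD, n = 3). *Rgs13*, a brake on chemokine receptor signals, rose 8.38-fold, and *Nuggc*, a nuclear GTPase of germinal center B cells, rose 12.2-fold. *Mef2b* was not called without soluble OVA replicate 1 (adjusted p = 0.0501), nor *Nuggc* without that library or PBS replicate 1 (adjusted p = 0.0510 and 0.0671).

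*Efnb1* (ephrin B1) had the smallest adjusted p of the list, at 4.12e-05, with 28.1, 24.1 and 27.7 CPM in the soluble OVA libraries and 8.53, 7.59 and 12.5 CPM in the PBS libraries. *Fas*, a death receptor that germinal center B cells display, rose 2.88-fold. *Bcl6* itself, the repressor that defines the germinal center program, was at 120.0, 111 and 114 CPM with soluble OVA and 98.9, 82.4 and 98.3 CPM with PBS, a rise of 0.33 on the log2 scale (edgeR adjusted p = 0.00586). Every soluble OVA library was above every PBS library for *Bcl6*, but without PBS replicate 2 the change was just under the fold cutoff. *Pou2af1* and *Cd38* were not called, with log2 fold changes of 0.13 and -0.15. Other called members, *Mybl1*, *Basp1*, *Gcnt3*, *Neil1*, and *Plxnb2*, rose by between 1.17 and 3.20 on the log2 scale. The number of members called was 8 without PBS replicate 1, 9 without PBS replicate 2, and 8 without soluble OVA replicate 1, and *S1pr2*, *Mybl1*, and *Basp1* were among those that lost their call (adjusted p between 0.0565 and 0.138) when any library but PBS replicate 3 was left out. DESeq2 called 14 of the 16 as well.

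**Figure D2:**
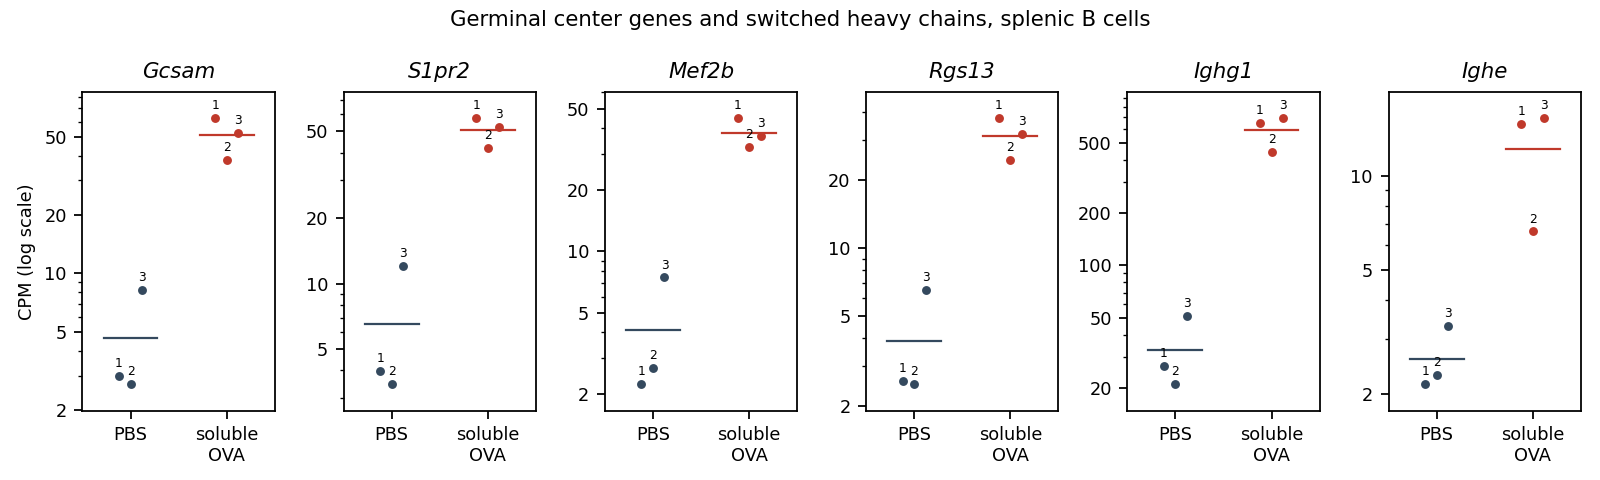
CPM in each of the 6 libraries (y axis, log scale) for 4 germinal center genes and the *Ighg1* and *Ighe* constant regions, with soluble OVA and PBS in separate columns. Points are libraries labelled by replicate number and bars are group means. For all 6 genes the 3 soluble OVA libraries lie above the 3 PBS libraries, and PBS replicate 3 is the highest of the PBS group.

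Transcripts of the *Ighg1*, *Ighe*, and *Ighg2b* constant regions rose and those of *Ighm* fell. The counts are per constant region, and whether the transcripts came from switched cells was not tested. *Ighg1* (chr12:113325240-113330523, minus strand, GRCm38), the constant region of IgG1, was at 649, 442 and 689.6 CPM in the soluble OVA libraries and at 26.6, 21.0 and 51.7 CPM in the PBS libraries, 18.3-fold higher (log2 fold change 4.19 ± 0.45, edgeR adjusted p = 0.00620). *Ighe* (chr12:113269260-113273248, minus strand), the constant region of IgE, was at 14.7, 6.64 and 15.3 CPM against 2.14, 2.29 and 3.30 CPM, 4.86-fold higher (adjusted p = 0.00190). For both, the lowest soluble OVA library, replicate 2, was above the highest PBS library, replicate 3. *Ighg2b* was at 33.2, 20.9 and 31.3 CPM against 11.1, 6.84 and 13.0 CPM (log2 fold change 1.50, adjusted p = 0.0124), and its call was lost without soluble OVA replicate 1 (adjusted p = 0.0750) or replicate 3 (0.0542). *Ighm* fell by 0.32 on the log2 scale, from 4451, 3935 and 3826 CPM to 3150.3, 3212 and 3298 CPM (adjusted p = 0.0107), and lost its call without PBS replicate 1 (adjusted p = 0.0990). The other 4 constant regions were not called, with log2 fold changes of -0.16 for *Ighd*, 0.46 for *Ighg3*, 0.27 for *Igha*, and *Ighg2c* at no more than 2.56 CPM in any of the 6 libraries.

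As a share of all heavy-chain constant counts, IgG1 made up 11.1% ± 2.23 (SD, n = 3) with soluble OVA and 0.577% ± 0.300 with PBS, and IgM made up 60.3% ± 2.00 and 70.4% ± 2.11. IgE was 0.227% ± 0.0861 against 0.0450% ± 0.0124. The groups did not overlap for any of these 3 shares, and the exact two-sided permutation test gave p = 0.1, the smallest that 3 libraries against 3 allow. All immunoglobulin genes together took only 0.766% ± 0.0214 of the counts with soluble OVA and 0.824% ± 0.0546 with PBS, so the isotype shares are shares of a small total. The mice are BALB/cJ and the reads were mapped to another strain's genome, and the effect of that on the isotype counts was not tested.

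Class switching and hypermutation draw on base excision and mismatch repair. Of 17 genes of class switching and hypermutation repair, 9 rose and 0 fell, with a median log2 fold change of 0.26. *Polh*, the error-prone polymerase that writes mutations at A and T bases, was at 56.8, 50.2 and 50.2 CPM with soluble OVA and 22.3, 25.1 and 28.7 CPM with PBS (log2 fold change 1.07 ± 0.10, edgeR adjusted p = 3.46e-06). *Ung*, which removes uracil from DNA, rose by 0.71 and *Exo1*, the mismatch repair nuclease, by 0.88 on the log2 scale. *Hmces*, a protector of abasic DNA sites, rose 3.02-fold, from 28.9, 28.2 and 40.6 CPM to 116, 78.7 and 93.7 CPM. *Msh6*, a mismatch recognition protein, rose by 0.48.

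Every gene of the mitosis list rose. All 38 genes were DEGs, the log2 fold changes lying between 0.34 and 2.05 (median, 1.48), and no library of either group overlapped with the other for any of them, against 17.7% of all tested genes with higher, nonoverlapping groups. *Top2a*, the topoisomerase that untangles replicated chromosomes, was at 215, 196 and 238 CPM with soluble OVA and 79.4, 74.2 and 82.6 CPM with PBS, 2.79-fold higher (edgeR adjusted p = 4.39e-08). *Cenpe*, a kinetochore motor, was at 73.5, 66.2 and 73.4 CPM against 24.3, 23.2 and 24.6 CPM and had an adjusted p of 4.39e-08, the smallest of the comparison. *Kif11* and *Kif20a*, motors of the spindle and the midbody, rose 3.06- and 2.87-fold. *Cdc20*, the activator of the anaphase-promoting complex, was at 66.3, 57.9 and 65.7 CPM against 23.0, 18.6 and 27.0 CPM. The largest change of the list was that of *Esco2*, a cohesin acetyltransferase, at 2.05 ± 0.13. Within each group the 3 values of these genes lay close together. Of the 42 genes of DNA replication, 39 rose and 0 fell, with a median of 0.69. *Rrm2*, a subunit of ribonucleotide reductase, rose by 1.41, *Uhrf1*, which maintains DNA methylation at the fork, by 1.33, and *Mcm6*, a subunit of the replicative helicase, by 0.89 on the log2 scale, with adjusted p-values of 8.89e-08, 5.18e-07, and 3.56e-07. The 3 members not called were *Cdt1*, *Rpa2*, and *Pold1*, at 0.20, 0.24, and 0.08.

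Genes of mitosis are known to share a cell cycle homology region (CHR), the letters TTTGAA, and a CCAAT box near their starts, through which the DREAM and B-MYB–FOXM1 complexes act late in the cycle. Replication genes are known for E2F sites. Promoters were taken from RefSeq for GRCm38.p6 as 250 bases before and 50 after each gene's start, and both strands were searched. The CHR letters were present in 24 of the 30 mitosis promoters at hand (80.0%), against 18.1% of all 27025 promoters, CCAAT was present in 80.0% against 37.9%, and both were present in 70.0% against 7.12%. Of 34 replication promoters, 11 (32.4%) held an E2F site, searched as TTTCCCGC, TTTGGCGC, or TTTCGCGC, against 1.91% of all promoters. Stretches of 120 bases upstream of 4 genes whose levels are given above show these letters, with matches on either strand in capitals, to CHR and CCAAT for the 3 mitosis genes and to E2F alone for *Mcm6*. They are printed 5′ to 3′ on the strand of the gene, and come from chr4:118437344-118437463, minus strand, for *Cdc20*, chr11:99024190-99024309, minus strand, for *Top2a*, chr19:37376262-37376381, plus strand, for *Kif11*, and chr1:128359706-128359825, minus strand, for *Mcm6*.
Cdc20: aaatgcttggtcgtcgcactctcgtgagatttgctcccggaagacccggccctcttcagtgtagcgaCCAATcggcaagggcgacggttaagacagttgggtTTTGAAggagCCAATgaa
Top2a: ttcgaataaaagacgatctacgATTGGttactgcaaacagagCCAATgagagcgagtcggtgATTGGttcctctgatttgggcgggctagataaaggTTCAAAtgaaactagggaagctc
Kif11: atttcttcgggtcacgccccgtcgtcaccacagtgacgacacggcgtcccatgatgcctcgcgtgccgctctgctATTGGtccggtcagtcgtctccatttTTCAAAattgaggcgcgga
Mcm6: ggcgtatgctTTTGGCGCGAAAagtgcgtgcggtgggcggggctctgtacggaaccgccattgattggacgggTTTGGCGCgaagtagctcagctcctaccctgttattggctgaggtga
In the *Top2a* stretch the CCAAT letters occur on both strands and the CHR reads TTCAAA, its reverse complement. The *Mcm6* stretch holds E2F letters at 2 places, the first of which is a pair of overlapping matches on opposite strands. The printed stretches were picked because they hold matches. The same stretch of *Cenpe*, *Ccnb1*, *Plk1*, and *Nek2* held CCAAT but no CHR. That of *Rrm2*, *Mcm5*, *Mcm3*, *Pcna*, and *Mcm2* held no E2F letters. A match is a description of the letters and was not tested as a binding site.

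Regulators of the step into S phase moved in a graded way. Of 14 genes of G1 control, 4 rose and 1 fell, the risers being *Ccnd2*, *Ccnd3*, *Cdk4*, and *Cdkn2c*. *Ccnd3*, the D cyclin on which germinal center B cells depend, was at 148, 133 and 151 CPM with soluble OVA and 81.4, 90.2 and 98.0 CPM with PBS (log2 fold change 0.70 ± 0.08, edgeR adjusted p = 1.89e-05), and *Ccnd2* rose by 0.39. *Cdkn2c*, an inhibitor of CDK4 and CDK6, rose 2.25-fold. *Cdkn1b*, the inhibitor p27 of resting lymphocytes, fell from 214, 219.9 and 196 CPM to 159.7, 151 and 163 CPM (log2 fold change -0.39). *Myc*, at 93.9, 103 and 106 CPM and 94.3, 102 and 98.8 CPM, overlapped between the groups.

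Feedback genes of cytokine signaling rose. SOCS proteins and CIS are induced by STAT transcription factors and shut the same receptors down. *Socs3* was at 35.4, 31.8 and 37.8 CPM in the soluble OVA libraries and 7.95, 9.64 and 11.3 CPM in the PBS libraries, 3.70-fold higher (edgeR adjusted p = 1.99e-07). *Socs1* was at 15.4, 13.5 and 13.5 CPM against 4.15, 5.26 and 6.23 CPM and *Cish* at 3.25, 4.08 and 3.74 CPM against 1.83, 1.59 and 1.44 CPM. *Nfil3*, a transcription factor that IL-4 induces in B cells, was at 12.2, 9.57 and 14.6 CPM against 2.01, 2.29 and 2.74 CPM (log2 fold change 2.39 ± 0.19). *Il4i1*, an amino acid oxidase named for its induction by IL-4, rose 2.12-fold, from 249, 226 and 275 CPM to 565, 494 and 507 CPM (adjusted p = 7.37e-07). The groups stayed apart for all 5 of these genes. They are the 5 of 12 genes of the IL-4 and IL-21 response list that rose. *Stat6*, the transcription factor of the IL-4 receptor, fell by 0.26 on the log2 scale (adjusted p = 0.00600), just past the fold cutoff, and was not called without PBS replicate 3 or soluble OVA replicate 1. *Il4ra*, a receptor subunit, was at -0.09 and was not called. *Lifr*, the receptor of leukemia inhibitory factor, was not on the list. It was 1 of the 12 largest rises by the rule for named genes given below, at 67.6, 54.8 and 90.3 CPM against 5.09, 5.88 and 4.65 CPM (log2 fold change 3.78 ± 0.20, edgeR adjusted p = 1.23e-05).

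Among genes of contact with T cells, *Cd83* rose and *Icosl* fell. *Cd83*, which stabilizes MHC class II and CD86 at the surface, was at 569.6, 562 and 528 CPM with soluble OVA and 227, 219 and 258 CPM with PBS (log2 fold change 1.26 ± 0.07, edgeR adjusted p = 1.11e-07). *Cd86* rose by 0.47. *Icosl*, the ligand of ICOS on follicular helper T cells, fell from 418, 407 and 449.8 CPM to 322, 340.3 and 316 CPM (log2 fold change -0.36, adjusted p = 0.00139). Of the 12 genes of the list, 3 rose and 2 fell, the others being *Icam1*, at 0.26, and *Cd274* (PD-L1), at -0.27. *Icam1* was not called without PBS replicate 1 or 2, nor *Cd274* without PBS replicate 3 or soluble OVA replicate 1. *Cd83* is also an NF-κB target. Of 17 NF-κB genes, *Cd83* and *Icam1* rose and 5 fell, namely the inhibitors *Nfkbia*, *Nfkbie*, and *Tnfaip3*, at -0.42, -0.26, and -0.41, and the subunits *Nfkb2* and *Relb*, at -0.34 and -0.28. The number that fell was 8 without PBS replicate 2 or soluble OVA replicate 2 and 3 without soluble OVA replicate 3, and 1 rose without PBS replicate 1 or 2. Of 11 MHC class II genes, 1 rose and 0 fell. For this list and the NF-κB list, the share that rose was near the 10.5% of all tested genes that rose. The MHC class II gene that rose was the transactivator *Ciita*, at 857, 983 and 931 CPM against 705, 752 and 832 CPM (log2 fold change 0.30, edgeR adjusted p = 0.0148). *Ciita* was not called without PBS replicate 1, PBS replicate 2, or soluble OVA replicate 2.

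Genes of resting B cells fell together by small amounts. Of 12 naive follicular genes, 9 fell and 0 rose, against 6.72% of all genes that fell, with a median log2 fold change of -0.30. *Klf2*, the transcription factor that keeps lymphocytes quiescent and recirculating, was at 306, 253 and 285 CPM with soluble OVA and 430.2, 412 and 388 CPM with PBS (log2 fold change -0.52 ± 0.08, edgeR adjusted p = 0.000299). Its target *S1pr1*, the exit receptor, fell by 0.37 on the log2 scale. *Ccr7*, the receptor for T zone chemokines, was at 95.3, 83.3 and 81.1 CPM against 129, 132 and 119 CPM, and *Cxcr5*, the receptor for the follicular chemokine, was at 443, 454 and 407 CPM against 550.3, 593 and 614 CPM. *Btla*, an inhibitory receptor, fell by 0.42. In each of these genes every soluble OVA library was below every PBS library. Of 17 migration genes, which share *Klf2*, *S1pr1*, *Ccr7*, and *Cxcr5*, among others, with that list, 9 fell and 3 rose. The risers were *S1pr2*, *Gpr183*, and *Cxcr3*, of which 0 were called without PBS replicate 1 or 2 and 1 without soluble OVA replicate 2. *Gpr183*, the oxysterol receptor that guides B cells to the outer follicle, was at 104, 94.8 and 97.3 CPM against 72.6, 73.8 and 89.7 CPM. *Itga4* and *Itgb7*, which pair as the gut-homing integrin, fell by 0.41 and 0.30, and *Itgb7* was under the fold cutoff without soluble OVA replicate 3.

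Of 10 marginal zone genes, 6 fell and 0 rose, with a median of -0.34. *Cd1d1*, which presents lipids to NKT cells, was at 31.6, 29.7 and 31.2 CPM with soluble OVA and 42.2, 47.7 and 38.9 CPM with PBS (log2 fold change -0.45 ± 0.09, edgeR adjusted p = 0.00201). *Cd9* was at 9.32, 10.0 and 9.94 CPM against 13.3, 14.2 and 15.7 CPM. *Asb2*, which had the largest fall of the list, went from 19.3, 23.5 and 23.6 CPM to 11.6, 13.1 and 10.8 CPM (adjusted p = 9.90e-05). Of 12 Toll-like receptor and adaptor genes, 5 fell (*Tlr2*, *Tlr3*, *Tlr6*, *Tlr9*, and *Cd180*) and 0 rose. *Tlr6* was not called without PBS replicate 1 or soluble OVA replicate 1, nor *Tlr9* without either of those, PBS replicate 2, or PBS replicate 3. *Tlr3*, a receptor for double-stranded RNA, was at 5.54, 5.49 and 4.89 CPM against 9.34, 9.47 and 9.07 CPM, and *Cd180*, a Toll-like surface receptor of B cells, fell by 0.32 on the log2 scale.

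Genes of antibody secretion rose in part. Of 15 plasma cell genes tested, 7 rose and 1 fell, and 2 fell without PBS replicate 3. *Xbp1*, which drives the expansion of the secretory apparatus, was at 93.8, 92.9 and 101 CPM with soluble OVA and 66.4, 57.8 and 66.4 CPM with PBS (log2 fold change 0.62 ± 0.07, edgeR adjusted p = 2.55e-05). *Mzb1*, an ER chaperone of IgM, rose by 0.44, and *Tent5c*, a poly(A) polymerase of secreted protein mRNAs, by 1.22. *Jchain* was at 224, 206 and 265 CPM against 146, 87.7 and 101 CPM (adjusted p = 0.0256) and lost its call without PBS replicate 3, soluble OVA replicate 1, or soluble OVA replicate 3. A pair of defining genes of the plasma cell were not called with all 6 libraries. *Prdm1*, its master regulator, was at 4.85, 6.25 and 6.87 CPM against 5.00, 3.42 and 4.65 CPM (adjusted p = 0.112), and *Sdc1*, its surface marker CD138, was at 11.4, 12.0 and 10.2 CPM against 17.2, 14.2 and 12.0 CPM (adjusted p = 0.0887). *Prdm1* was called higher without soluble OVA replicate 1 (adjusted p = 0.0490) and *Sdc1* lower without PBS replicate 3 (adjusted p = 0.0336) or without a filter on low counts (adjusted p = 0.0350). The gene of the list that fell was *Irf4*, from 211, 221 and 218 CPM to 158, 178 and 180.5 CPM (log2 fold change -0.31). Of 23 genes of ER folding, 10 rose and 0 fell, led by *Sdf2l1*, a cofactor of BiP, at 0.99, and *Xbp1*, which is also on this list. *Pdia6*, a disulfide isomerase, rose by 0.51.

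Genes of growth and lipid synthesis rose. Of 76 ribosomal protein genes, 63 rose and 0 fell, with a median log2 fold change of 0.32. Their summed share of counts was 6.00% ± 0.578 (SD, n = 3) with soluble OVA and 4.89% ± 0.202 with PBS, without overlap (exact two-sided permutation p = 0.1, the smallest possible). The number called fell to 29 without PBS replicate 1, 25 without PBS replicate 2, and 29 without soluble OVA replicate 1. Cholesterol synthesis rose more uniformly, with 16 of 17 genes up and a median of 0.57. *Idi1*, the isopentenyl diphosphate isomerase, was at 58.1, 50.6 and 51.3 CPM against 25.3, 25.0 and 24.5 CPM (log2 fold change 1.12 ± 0.08, edgeR adjusted p = 3.98e-07). *Sqle*, which epoxidizes squalene, was at 33.2, 29.8 and 31.1 CPM against 17.5, 12.8 and 16.5 CPM, and the groups stayed apart for both. The member not called was *Srebf2*, the transcription factor of the pathway, at 0.13.

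The study took markers of regulatory B cells from the literature and kept those among its DEGs between OVA NP–treated mice and the same PBS mice, so their direction here is not independent evidence. The 2 lists used here are the markers that its text names, which are part of the whole sets. Of 25 named as higher with OVA NPs, 19 rose with soluble OVA and 0 fell, with a median log2 fold change of 0.47. The list holds the germinal center gene *Rgs13* and the plasma cell genes *Mzb1* and *Tent5c*, described above, as well as *Lipc* (hepatic lipase), at 11.7, 8.30 and 11.4 CPM against 2.41, 2.67 and 2.51 CPM, and *Mthfd2*, a mitochondrial folate enzyme, at 29.8, 25.5 and 28.8 CPM against 14.4, 14.4 and 15.3 CPM (edgeR adjusted p = 8.16e-06). Of 12 named as higher with PBS, 10 fell with soluble OVA and 0 rose, with a median of -0.55. *Ptprj*, the phosphatase CD148, was at 107, 143 and 135 CPM against 198, 202 and 177 CPM, and *Nebl* was at 8.29, 9.44 and 9.78 CPM against 16.3, 18.2 and 14.6 CPM. *Il10*, the cytokine that defines regulatory B cells, had 0, 1 and 1 counts in the soluble OVA libraries and 3, 2 and 1 in the PBS libraries. A difference in *Il10* was not detectable at this depth, and it was not tested. *Tgfb1* and *Il12a*, the latter a subunit of IL-35, fell by 0.26 and 0.67 on the log2 scale, and the *Tgfb1* call was lost without PBS replicate 1, PBS replicate 3, or soluble OVA replicate 3.

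The largest named rises outside these lists were in genes with little transcript in the PBS libraries. *Slpi*, a secreted inhibitor of leukocyte proteases, was at 78.0, 56.0 and 96.3 CPM with soluble OVA and 3.22, 1.84 and 4.79 CPM with PBS (log2 fold change 4.59 ± 0.38, edgeR adjusted p = 0.00174). *Sh3bgrl2* was at 16.5, 14.7 and 14.8 CPM against 1.34, 0.793 and 1.95 CPM and *Gnaz*, the G protein subunit Gαz, at 10.2, 7.53 and 8.24 CPM against 0.268, 0.626 and 1.07 CPM. *Osbpl3*, an oxysterol-binding protein, was at 15.4, 15.4 and 15.6 CPM against 1.92, 1.42 and 2.00 CPM. All 4 genes were several-fold above the highest PBS library in every soluble OVA library. *Emp2*, *Hapln1*, *Tox2*, and *Adhfe1* rose by 4.23, 4.02, 3.79, and 3.65 on the log2 scale, but no PBS library held more than 0.651 CPM of any of them. *Rprml* had 82, 18 and 43 counts with soluble OVA and 0, 0 and 5 with PBS, and *Rsc1a1*, an intronless gene that overlaps *Ddi2* on the same strand, had 130, 47 and 25 against 0, 3 and 0. These 2 genes had the largest fitted rises of the DEGs that met the rule for named genes given below. Their fitted changes depend on how zero counts are handled, and reads of *Rsc1a1* cannot be told apart from those of *Ddi2* in the overlap. In a fit of all 9 spleen libraries *Rsc1a1* was not called (adjusted p = 0.105).

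The largest falls by the rule for named genes given below were in genes of myeloid cells. Of the 12 largest, *Treml4*, *Ace*, *Cd300e*, *Cx3cr1*, *Adgre4*, and *Slc11a1* are on the monocyte marker list, and the others included *Ifitm6*, *Cd300lb*, *Fn1*, *Ccl6*, and *Krt80*. *Ace*, which is high in patrolling monocytes, was at 1.49, 3.64 and 1.43 CPM with soluble OVA and 22.8, 18.9 and 30.9 CPM with PBS (log2 fold change -3.51 ± 0.36, edgeR adjusted p = 0.000907). *Cx3cr1*, the fractalkine receptor of the same cells, was at 1.22, 3.06 and 0.769 CPM against 7.19, 5.88 and 10.8 CPM. *Treml4* was at 0.153, 0.574 and 0.275 CPM against 2.46, 2.34 and 6.74 CPM. In each of these 3 genes all soluble OVA libraries lay below all PBS libraries. The call of *Cx3cr1* or *Adgre4* was lost without soluble OVA replicate 1, and those of *Ccl6* and *Fn1* without any of the soluble OVA replicates, or, for *Fn1*, PBS replicate 1 or 3. *Ly6c2*, the marker of classical monocytes, was at 16.9, 18.8 and 14.1 CPM against 15.0, 13.3 and 16.6 CPM and was not called. The 10 monocyte markers, of which 6 fell and none was at 0, summed to between 52.2 and 110 CPM with soluble OVA and between 136 and 308 CPM with PBS.

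Basophil and mast cell markers moved the other way, and all 6 of the list rose. *Mcpt8*, a protease of basophils, was at 4.70, 5.74 and 3.02 CPM with soluble OVA and 0.581, 1.00 and 1.16 CPM with PBS (log2 fold change 2.31 ± 0.32, edgeR adjusted p = 0.000193). *Prss34*, another basophil protease, was at 4.97, 5.49 and 2.91 CPM against 0.849, 0.417 and 1.40 CPM, and *Cpa3*, the carboxypeptidase of mast cells and basophils, at 8.56, 9.89 and 7.69 CPM against 2.64, 2.80 and 4.60 CPM. In a fit of all 9 spleen libraries *Prss34* was not called (adjusted p = 0.0517). *Fcer1a*, the α chain of the high-affinity IgE receptor, was at 0.764, 1.08 and 0.769 CPM against 0.268, 0.334 and 0.186 CPM (adjusted p = 0.0173). The 6 genes summed to between 23.5 and 34.7 CPM against 9.25 and 15.6 CPM, with the highest sum in soluble OVA replicate 2, and 3 of them were called without that library. DESeq2 called 5 and gave *Fcer1a* no adjusted p, and with edgeR *Fcer1a* was not called without PBS replicate 1, PBS replicate 3, or soluble OVA replicate 2. Negative selection was used to isolate B cells, and the presence of monocytes, basophils, or mast cells in the isolates was not tested. The part of these cells in the changes of *Itgam* and *Itgax*, integrins that myeloid cells also express and that fell by 1.11 and 0.96 on the log2 scale, was not tested, and *Itgam* was not called without PBS replicate 1, soluble OVA replicate 1, or soluble OVA replicate 3.

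Markers of further cell types moved too, and these genes were named after their values were seen. Among erythroid genes, *Klf1* and *Slc4a1* rose, by 0.36 and 2.63, although the summed erythroid level overlapped between the groups. *Gzmb*, of the NK cell list, and *Flt3*, of the dendritic cell list, rose, and the dendritic cell gene *Cd209a* and the macrophage genes *Adgre1* and *Spic* fell. With edgeR the call of *Klf1* was lost without PBS replicate 2 or 3 or soluble OVA replicate 1 or 3, that of *Adgre1* without PBS replicate 1 or 3 or soluble OVA replicate 3, and that of *Cd209a* without PBS replicate 1 or 3 or soluble OVA replicate 2 or 3 (adjusted p between 0.0553 and 0.150 over these fits). *Pecam1*, of the stroma list, fell by 0.27 on the log2 scale, under the fold cutoff without PBS replicate 3 or soluble OVA replicate 3 (-0.25 and -0.22). The stroma sum was between 193 and 218 CPM with soluble OVA and between 243 and 255 CPM with PBS. The plasmacytoid dendritic cell sum, in which no gene was called, was between 179 and 190.2 CPM against 195 and 213 CPM. The most abundant gene of the stroma list was *Pecam1* and that of the plasmacytoid dendritic cell list was *Tcf4*. Whether these transcripts came from the B cells themselves was not tested. The part of these markers in the other results was not tested.

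**Figure D3:**
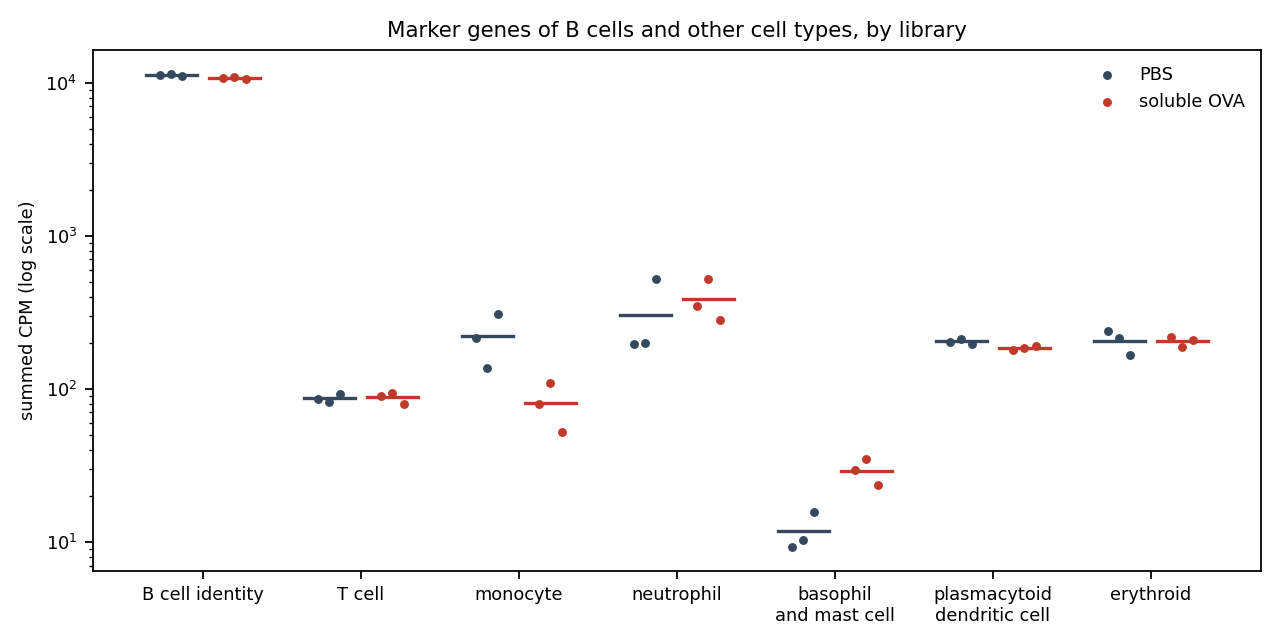
Summed CPM (y axis, log scale) of marker lists for B cells and 6 other cell types in each of the 6 libraries. Points are libraries and bars are group means. Monocyte markers are lower and basophil and mast cell markers higher in all 3 soluble OVA libraries, B cell and plasmacytoid dendritic cell markers are slightly lower without overlap, and T cell, neutrophil, and erythroid markers overlap between the groups.

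Some interferon-induced genes fell. Of 16 interferon-induced GTPases and partners tested, 7 fell and 0 rose, with a median log2 fold change of -0.27. *Gbp9* was at 168, 174 and 181 CPM with soluble OVA and 236, 257 and 202 CPM with PBS (log2 fold change -0.39 ± 0.08, edgeR adjusted p = 0.00359), and the transcription factor *Irf1* was at 108, 95.9 and 93.8 CPM against 131, 121 and 124 CPM. The number that fell was 3 without PBS replicate 1, PBS replicate 2, or soluble OVA replicate 2 and 4 without soluble OVA replicate 3. Of 26 antiviral genes induced by type I interferon, 3 fell, namely *Oasl1*, *Parp14*, and the RNA sensor *Ddx58* (RIG-I), at -0.35, -0.28, and -0.33. This count is not far from the 6.72% of all tested genes that fell and is not a result about the list. The log2 fold change was above 0 for 9 of the 26. *Oasl1* was not called without any library but PBS replicate 3, nor *Parp14* without PBS replicate 2 or soluble OVA replicate 1, and 9 of the 26 fell without PBS replicate 3.

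The form of the antigen was compared directly in the same organ. Few genes passed the test of the difference. Of 13840 genes tested between the soluble OVA and OVA NP libraries, 33 (0.238%) were DEGs, 14 higher (0.101%) and 19 lower (0.137%) with soluble OVA, against 2428 between soluble OVA and PBS. DESeq2 called 113. The number called by edgeR was 0 without OVA NP replicate 2 (660 genes at an unadjusted p under 0.05), 7 without soluble OVA replicate 1, and 10 without soluble OVA replicate 3. Soluble OVA was given as 100 μg of free protein and OVA NPs as 2.5 mg of particles, a weight that includes the polymer. At the OVA loading that the study states for its particles, that weight also carries 100 μg of OVA. *Socs3* was highest with soluble OVA, at 35.4, 31.8 and 37.8 CPM, and was at 21.5, 19.2 and 16.2 CPM with OVA NPs and 7.95, 9.64 and 11.3 CPM with PBS (soluble OVA against OVA NP, log2 difference 0.90 ± 0.11, edgeR adjusted p = 0.00419). *Il4i1*, at 343, 327 and 349 CPM with OVA NPs, was higher with soluble OVA by 0.62 (adjusted p = 0.00609), and *Osbpl3*, at 9.16, 7.14 and 6.79 CPM, by 1.02 (adjusted p = 0.00686). *Pltp*, a phospholipid transfer protein, was at 39.7, 33.8 and 35.9 CPM with soluble OVA, 17.8, 18.5 and 23.2 CPM with OVA NPs, and 19.0, 19.0 and 20.2 CPM with PBS. For these 4 genes the 3 soluble OVA libraries lay above the 3 OVA NP libraries.

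Genes lower with soluble OVA than with OVA NPs included interferon and chaperone genes. *Igtp*, an interferon-induced GTPase, was at 24.7, 23.5 and 21.8 CPM with soluble OVA and 35.3, 40.3 and 35.5 CPM with OVA NPs (log2 difference -0.66 ± 0.09, edgeR adjusted p = 0.00686), and *Nlrc5*, the transactivator of MHC class I, was at 55.7, 61.6 and 66.6 CPM against 88.9, 104 and 87.5 CPM. Of the GTPase list, *Igtp*, *Gbp7*, *Irgm2*, and *Tgtp2* passed the test. *Dnaja1*, a cochaperone of HSP70, was at 224, 209.8 and 234 CPM against 331, 367 and 327 CPM, and *Sgip1* was at 4.05, 4.08 and 3.41 CPM, 9.58, 10.5 and 9.81 CPM, and 9.29, 14.1 and 13.9 CPM with soluble OVA, OVA NPs, and PBS. Of the 16 germinal center genes, *Mef2b* alone passed the test, higher with soluble OVA by 0.69 (edgeR adjusted p = 0.0360), and *Gcsam* and *Ighg1* differed by 0.27 and 0.46 on the log2 scale with adjusted p-values of 0.733 and 0.500. The comparisons of soluble OVA with PBS and with OVA NP share the soluble OVA libraries, and the values are given side by side.

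The splenic response was also set against that of Peyer's patches, gut lymphoid tissue in which germinal centers are always present, by an interaction term fitted to the 12 libraries of both tissues. The labels do not say whether the 2 tissues came from the same mice, and the fit treated all libraries as independent. In Peyer's patch alone, 27.4% of 15792 tested genes were DEGs. The effect of soluble OVA differed between the tissues for 1131 of 16541 genes (6.84%, edgeR adjusted p under 0.05), with 838 (5.07%) higher and 293 (1.77%) lower in the spleen than in Peyer's patch. The count was 655 without spleen PBS replicate 1 and 700 without spleen PBS replicate 2, and 547 were higher in the spleen without Peyer's patch soluble OVA replicate 3. *Samsn1*, an adaptor that dampens B cell activation, had the smallest adjusted p, 1.97e-08. In the spleen it was at 299.8, 296 and 251 CPM with soluble OVA and 92.3, 86.4 and 100.2 CPM with PBS, and in Peyer's patch at 64.5, 59.7 and 67.4 CPM and 124, 131 and 128 CPM, so it rose in the spleen and fell in Peyer's patch (difference 2.60 ± 0.12 on the log2 scale). *Nfil3* and *Wdfy2* did the same, with differences of 3.76 and 1.93. *Ighg1* was at 144, 195 and 176 CPM with soluble OVA and 975, 750.5 and 892 CPM with PBS in Peyer's patch, where it fell, and the difference from its splenic rise was 6.51 ± 0.47 (adjusted p = 0.000107). *Cd83* rose by 1.26 in the spleen and was at -1.33 in Peyer's patch (adjusted p of the difference = 5.36e-05).

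Among germinal center genes, 9 of 16 passed the test with a higher change in the spleen, against 5.07% of all tested genes. They included *Cd38*, which fell in Peyer's patch, and *Pou2af1* passed with a lower change. The median log2 fold changes of the 16 genes were 2.90 (spleen) and 0.66 (Peyer's patch). *Gcsam* had a PBS level of 2.99, 2.71 and 8.23 CPM in the spleen and 132, 109 and 116 CPM in Peyer's patch, so the tissues started far apart. By contrast, mitosis genes rose in both tissues, with medians of 1.48 and 1.11, and the difference passed the test for 6 of 38. All 11 MHC class II genes differed between the tissues, with medians of 0.09 (spleen) and -0.66 (Peyer's patch). Cholesterol synthesis genes had medians of 0.57 and -0.04, and 11 of 17 differed, among them *Idi1*, with a difference of 1.13 (edgeR adjusted p = 0.000244). The genes of smallest p that were lower in the spleen were *Kcnk5*, *Trio*, *Mcoln2*, *Akap12*, and *Fam78a*. *Trio*, a guanine nucleotide exchange factor, fell in the spleen, from 81.1, 84.1 and 85.6 CPM to 58.7, 67.1 and 63.7 CPM, and rose in Peyer's patch, from 81.4, 78.9 and 74.9 CPM to 141, 123 and 120.3 CPM (adjusted p = 4.58e-05). *Mcoln2*, a cation channel of endosomes, fell by 0.80 on the log2 scale in the spleen and was at 0.32 in Peyer's patch.

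**Figure D4:**
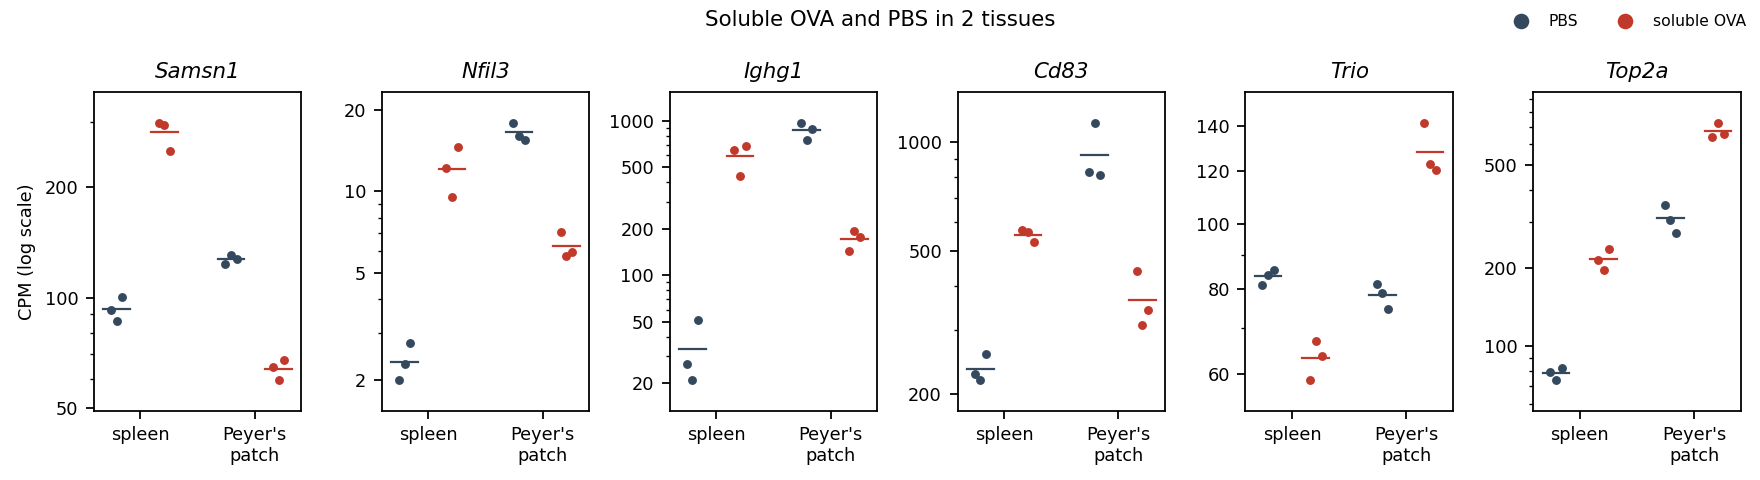
CPM (y axis, log scale) of 6 genes in each library of soluble OVA– and PBS-treated mice, with spleen at the left and Peyer's patch at the right of each panel. Points are libraries and bars are group means. *Samsn1*, *Nfil3*, *Ighg1*, and *Cd83* are higher with soluble OVA in the spleen and lower in Peyer's patch, *Trio* shows the reverse, and *Top2a* is higher with soluble OVA in both tissues.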

How the data were processed

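Paired RNA-Seq reads of 18 libraries were, per the labels and the study's methods, trimmed with Cutadapt 2.3, aligned to GRCm38 with STAR 2.7.8a, and quantified with RSEM 1.3.3. The authors deposited RSEM expected counts for 55491 genes, all of them whole numbers. Groups came from the sample titles. Each fit (R 4.3.3, edgeR 4.0.16, limma 3.58.1) used only the libraries of its comparison, with filterByExpr (minimum count 10, minimum total 15), TMM normalization, and the robust quasi-likelihood F test. DEGs had a Benjamini-Hochberg adjusted p under 0.05 over all tested genes and an absolute log2 fold change over 0.25. The interaction of tissue and treatment had no fold cutoff. SE is the log2 fold change divided by the square root of F. CPM values are counts scaled to a library total of 1000000. DESeq2 1.42.0, other normalizations and filters, the replicate block, and leaving out each library were alternatives. The scripts' tests were checked on simulated counts. Positions are from GENCODE for GRCm38.

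The gene lists (35 programs, 12 cell type marker lists) and the rule for named genes were chosen with earlier results of these data known. Named were the 12 largest DEGs per direction whose groups did not overlap and whose mean was at least 1 CPM (receptor segments and Gm or Rik symbols left out), all heavy-chain constant regions and *Il10*, the 3 members of smallest p of each list with, for marker lists, the 3 of highest mean CPM, and the 5 genes of smallest p per direction against OVA NP and for the interaction. A few genes are not reported here. Genes outside this rule were named after their values were seen. Replicates are separate samples by their labels. The edgeR p-values set each group difference against the spread among them, which the test moderates across genes.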

Additional observations from a re-analysis of the deposited data

Results flagged for a closer look

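The effect of soluble OVA differed between spleen and Peyer's patch for 1131 of 16541 genes (6.84%, edgeR interaction test, adjusted p under 0.05). Of the 164 genes named in the text, 69 were among them, 56 with a higher and 13 with a lower log2 fold change in the spleen. Many named genes were chosen by their change in the same spleen libraries, and some by this test. The share and direction among them are therefore not a result. The values that follow are the splenic log2 fold change minus that of Peyer's patch.

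Among germinal center genes the difference was 2.81 for *Gcsam*, 2.99 for *Rgs13*, 2.53 for *Mef2b*, 2.53 for *Gcnt3*, 2.44 for *Nuggc*, 2.35 for *S1pr2*, 0.96 for *Neil1*, 0.95 for *Fas*, 0.74 for *Cd38*, and -0.45 for *Pou2af1*. Among heavy chains it was 6.51 for *Ighg1*, 1.99 for *Ighe*, 1.31 for *Ighd*, and -2.03 for *Ighg2b*, which rose more in Peyer's patch, at 3.53. Genes of cytokine response had differences of 3.76 for *Nfil3*, 2.44 for *Socs3*, 1.99 for *Il4i1*, 1.40 for *Cish*, 1.09 for *Socs1*, 0.65 for *Il4ra*, and 4.04 for *Lifr*. Genes of T cell contact and NF-κB had 2.59 for *Cd83*, 1.37 for *Cd274*, 0.97 for *Ciita*, 0.45 for *Icosl*, 0.45 for *Nfkbie*, 0.41 for *Nfkb2*, and 0.37 for *Nfkbia*.

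Several genes of resting cells that fell in the spleen were lower still in Peyer's patch, so their difference was positive, at 1.84 for *Ccr7*, 1.33 for *Klf2*, 1.08 for *S1pr1*, and 1.02 for *Itgb7*, and it was 2.05 for *Gpr183*. Cell cycle genes had 0.99 for *Myc*, 0.88 for *Cdkn1b*, 0.85 for *Ccnd2*, 0.78 for *Esco2*, and -0.35 for *Pold1*. Cholesterol synthesis genes had 1.13 for *Idi1*, 0.83 for *Sqle*, and 0.38 for *Srebf2*. Genes of secretion and of the study's regulatory lists had 1.22 for *Tent5c*, 0.98 for *Irf4*, 0.65 for *Xbp1*, 1.20 for *Lipc*, and -0.88 for *Ptprj*, and the GTPase *Gbp7* had 0.92.

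Of the largest splenic rises, the difference was 6.87 for *Rprml*, 6.76 for *Emp2*, 5.53 for *Hapln1*, 4.53 for *Slpi*, 3.80 for *Gnaz*, 3.44 for *Sh3bgrl2*, 3.05 for *Tox2*, 2.79 for *Adhfe1*, and 2.26 for *Osbpl3*, and *Pltp* had 1.59. *Pecam1*, of the stroma list, had 0.71. The monocyte markers that differed had -4.53 for *Ace*, -2.64 for *Treml4*, -2.23 for *Cx3cr1*, and -2.07 for *Adgre4*. The genes named for the smallest p of this test had 2.60 for *Samsn1*, 1.93 for *Wdfy2*, -1.20 for *Akap12*, -1.13 for *Mcoln2*, -1.12 for *Trio*, -1.11 for *Kcnk5*, and -0.90 for *Fam78a*.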

How the results depend on the processing

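The 2428 DEGs between soluble OVA and PBS were 2393 with DESeq2, 2420 with DESeq2's size factors in edgeR, 2370 with at least 10 counts in every library, 2907 without a filter, 2429 without immunoglobulin genes, and 2397 in a fit of all 9 spleen libraries. When 1 library was left out, between 1754 and 2472 were called, with 1093 to 1561 higher and 620 to 911 lower, and the lowest number lower, 620, came without PBS replicate 1. Soluble OVA and PBS libraries with the same replicate number deviated from their group means with a mean correlation of -0.084. Of the soluble OVA replicates, 0 of 3 correlated best with the PBS library of their own number. With 3 numbers, these values cannot tell whether libraries of the same number were handled together, and the labels do not say. With the replicate number as a block, 2265 DEGs were called between soluble OVA and PBS, 32 between soluble OVA and OVA NP, and 893 genes for the interaction. Under the block *Mef2b*, *Nuggc*, *S1pr2*, *Mybl1*, *Basp1*, *Cx3cr1*, *Adgre4*, *Fn1*, *Itgam*, *Cd209a*, and *Klf1* were not called (adjusted p between 0.0540 and 0.220). Without a filter *Basp1*, *Mybl1*, *Jchain*, and *Fn1* were not called (adjusted p between 0.0595 and 0.0840), and in the fit of all 9 spleen libraries *Fn1*, *Itgam*, *Oasl1*, *Prss34*, *Rsc1a1*, and *Klf1* were not (0.0517 to 0.504).

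The 33 DEGs between soluble OVA and OVA NP were 113 with DESeq2 (52 higher, 61 lower) and 230 without a filter (103 higher, 127 lower), and between 0 and 40 when 1 library was left out (0 to 23 higher, 0 to 25 lower). The interaction called 1816 genes with DESeq2, of which 605 were lower in the spleen, and 450 were lower without a filter. Leaving out 1 library gave between 655 and 1279 (494 to 952 higher, 161 to 427 lower). The cause of these shifts was not tested.

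*Ighg2c*, whose log2 fold change was -0.00, turned to 0.0073 with at least 10 counts in every library, 0.00094 in the fit of all 9 spleen libraries, and 0.0860 with the replicate block, and lay between -0.24 and 0.64 when 1 library was left out. *Fam78a*, at -0.03, lay between -0.063 and 0.0097 when 1 library was left out, turning positive without PBS replicate 3 (0.00035) or soluble OVA replicate 2 (0.0097). Over all genes named, 2113 recomputed values kept direction and call, 122 lost the call, 16 gained it, and 7 changed sign. In a simulation of the soluble OVA and PBS comparison, 200 of 13962 genes were changed and every gene had a dispersion of 0.02. There edgeR recovered 97 of 100 genes changed by 1 and 25 of 100 changed by 0.5 on the log2 scale. Far fewer genes were changed than were called in the data, and the spread of the data was not modeled, so these rates do not carry over.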

Other observations

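Metabolic genes rose along with those of growth. Of 9 genes of serine synthesis and folate one-carbon metabolism, 7 rose and 0 fell with soluble OVA, against 10.5% of all tested genes that rose. *Psat1*, an aminotransferase of serine synthesis, was at 50.3, 46.5 and 51.9 CPM in the soluble OVA libraries and 23.6, 25.0 and 27.1 CPM in the PBS libraries (log2 fold change 1.00 ± 0.08 [SE], edgeR adjusted p = 1.21e-06). The groups did not overlap. Of 14 glycolytic genes, 6 rose and 0 fell, led by *Gapdh*, at 415, 346 and 367 CPM against 225, 231 and 247 CPM, and *Ldha*, which makes lactate, rose by 0.54 on the log2 scale.

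Nuclear genes of the respiratory chain moved by small amounts, with 21 of 30 up and a median log2 fold change of 0.29. The number was 13 without PBS replicate 2 and 12 without soluble OVA replicate 1. *Cox4i1*, a subunit of cytochrome c oxidase, was at 230.4, 189 and 184 CPM against 150.0, 143 and 154 CPM. Of 30 proteasome subunits, 21 rose, with a median of 0.29, and 9 rose without soluble OVA replicate 1. *Psma7* was at 145, 133 and 131 CPM against 104, 102 and 103 CPM (edgeR adjusted p = 0.000289). Of 15 heat shock genes tested, 7 rose and 0 fell with soluble OVA over PBS. The chaperonin *Hspe1* was at 113, 101 and 105 CPM against 80.0, 74.8 and 74.5 CPM, and the chaperone *Hspa8* at 1009.7, 989 and 1042 CPM against 749.8, 796 and 821 CPM. In OVA NP–treated mice *Hspa8* was at 1589, 1566 and 1267 CPM, and the direct test between soluble OVA and OVA NPs gave a log2 difference of -0.53 ± 0.09 (edgeR adjusted p = 0.0192).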
